A study of Homo sapiens with 3 samples.

Results

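The genes described here make cholesterol and fatty acids. They were 31 named genes of the mevalonate and sterol pathway, of its control by the SREBP transcription factors, and of fatty acid synthesis. A gene was represented by its brightest probe set, the group of array probes for a transcript, among those paired with that gene symbol alone. By this rule 29 of the 31 genes, of 18132 genes on the array, had a reading. FDFT1, squalene synthase, had 0 probe sets paired with its symbol alone. CYP51A1, lanosterol demethylase, was paired only with probe sets that carried a second symbol. Neither is analysed here. DHCR7, a final reductase of the pathway, read log2 4.26 on the LOXL2 delta72 array, 4.26 on the LOXL2 WT array and 4.23 on the control array, below the filter on dim genes. The filter was the 40th percentile of all probe set means, log2 5.27. It left 28 of the genes, and 12232 genes in all.

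The cells were KYSE150, an established line from a human oesophageal squamous carcinoma, kept in medium with fetal calf serum. They were transfected with pcDNA3.1 LOXL2 delta72, with pcDNA3.1 LOXL2 WT or with vector, and RNA was taken 48 hours later. LOXL2 is a lysyl oxidase of the extracellular matrix, and the labels name the delta72 form without describing it. Each of the 3 groups was 1 array, so the arrays have no replicate spread, no test was made, and every difference holds for these arrays only. The transfections were transient, and the share of cells that took up plasmid is not given in the sources used here. From bulk RNA, fewer cells expressing a gene and less RNA per cell cannot be told apart.

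Cholesterol is built from acetyl-CoA through mevalonate and squalene, and the enzymes of the route are under shared control. When membrane sterol is low, SCAP carries the SREBP precursors from the endoplasmic reticulum to the Golgi, where proteases free the active factors. When sterol is plentiful, the INSIG proteins hold SCAP back. SREBP-2, the product of SREBF2, acts mainly on sterol genes, and SREBP-1, the product of SREBF1, mainly on fatty acid genes. INSIG1 is itself a target of SREBPs, whose activity was not measured here. Cultured cells in serum draw on both uptake and synthesis of sterol.

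The promoters of these genes are described first, because SREBPs are known to act together with NF-Y, which binds the CCAAT box, and with Sp1. RefSeq promoters of build GRCh38.p14 were found for 27 of the 31 genes, in 37 entries. ACAT2, FDFT1, SQLE and FASN were not among them. In the 250 bases before the annotated start, the NF-Y box CCAAT was searched on both strands, so that ATTGG on the gene's strand is the same box. It stood in 19 of the 27 genes (70.4%), and at least 2 copies stood in 13 (48.1%). Among genes above the filter with a RefSeq promoter, 41.2% of 9954 held a copy and 14.9% held at least 2. Among the sterol synthesis enzymes the box was in 13 of 15 genes. The share was lower over all 27305 genes of the promoter table, non-coding genes included, at 37.0%. A gene with several promoters was counted once, by the promoter with the most copies.

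The Sp1 box GGGCGG, on either strand, stood in 26 of the 27 genes, against 72.9% of the genes above the filter and 46.2% of all genes of the promoter table. The sterol regulatory element TCACNCCAC, on either strand, stood in 1 of the 27, against 1.20% of the genes above the filter and 1.09% of all genes of the promoter table. That gene was SREBF2. Matches of overlapping copies were each counted. A match is a run of letters and not a measured binding site, and a missing match says only that these letters are not in the window.

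The promoters below are shown because the genes lie at different points of the pathway and differ in these boxes. Capitals mark the sterol regulatory element TCACNCCAC and the NF-Y box. FADS1, the desaturase gene that was higher on both LOXL2 arrays, has neither. The same holds for PMVK, INSIG2, SREBF1, ELOVL6 and FADS2, which were lower on both arrays by their brightest probe sets. A link between these boxes and the direction of a gene was not tested.
SREBF2, GRCh38.p14, chr22:41832855-41833104, plus strand: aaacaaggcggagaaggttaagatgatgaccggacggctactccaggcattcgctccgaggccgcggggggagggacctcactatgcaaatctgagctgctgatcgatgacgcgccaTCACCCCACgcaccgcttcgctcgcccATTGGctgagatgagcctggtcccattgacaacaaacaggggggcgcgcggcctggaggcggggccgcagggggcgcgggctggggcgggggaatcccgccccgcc
INSIG1, GRCh38.p14, chr7:155297628-155297877, plus strand: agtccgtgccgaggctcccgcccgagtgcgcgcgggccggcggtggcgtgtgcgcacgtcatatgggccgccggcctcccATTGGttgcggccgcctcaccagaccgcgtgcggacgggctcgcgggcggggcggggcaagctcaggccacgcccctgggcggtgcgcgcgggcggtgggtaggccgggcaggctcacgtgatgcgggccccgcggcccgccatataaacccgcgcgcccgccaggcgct
FDPS, GRCh38.p14, chr1:155308616-155308865, plus strand: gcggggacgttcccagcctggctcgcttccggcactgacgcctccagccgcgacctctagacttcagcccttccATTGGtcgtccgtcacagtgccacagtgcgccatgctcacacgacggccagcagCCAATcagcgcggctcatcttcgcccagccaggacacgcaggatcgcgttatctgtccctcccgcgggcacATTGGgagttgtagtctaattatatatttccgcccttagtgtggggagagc
MSMO1, GRCh38.p14, chr4:165327419-165327668, plus strand: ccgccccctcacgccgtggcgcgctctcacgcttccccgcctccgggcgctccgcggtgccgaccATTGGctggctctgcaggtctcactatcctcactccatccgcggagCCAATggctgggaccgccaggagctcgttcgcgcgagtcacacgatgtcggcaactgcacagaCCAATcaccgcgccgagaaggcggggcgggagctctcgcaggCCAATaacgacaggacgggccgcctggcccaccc
FADS1, GRCh38.p14, chr11:61817004-61817253, minus strand: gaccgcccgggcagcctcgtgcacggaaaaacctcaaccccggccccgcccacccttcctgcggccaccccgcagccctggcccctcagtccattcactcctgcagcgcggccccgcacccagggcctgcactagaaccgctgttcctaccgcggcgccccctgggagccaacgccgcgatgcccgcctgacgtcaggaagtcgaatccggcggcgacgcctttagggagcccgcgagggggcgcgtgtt
SREBF2 holds the element 133 to 125 bases before the start and an NF-Y box 106 to 102 bases before it. MSMO1 holds 4 NF-Y boxes, FDPS 3 and INSIG1 1. The Sp1 boxes, 5 of them in INSIG1, are not marked.

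Before the members, the arrays were checked. LOXL2 itself read log2 14.06 with delta72, 14.05 with WT and 7.46 with control on its brightest probe set, so the transfected gene went with the labels, though 1 of its 4 probe sets was lower with both forms. The median deposited value was 5.94 with delta72, 5.93 with WT and 5.95 with control. Background probe sets read between 2.29 and 10.84, depending on their base content, and differed by up to 0.173 between delta72 and control, 0.285 between WT and control and 0.152 between delta72 and WT. The 3' minus 5' signal of actin, a measure of RNA integrity, was log2 1.32 with delta72, 1.46 with WT and 1.26 with control, and that of GAPDH was within 0.01 of 0 on each array. Its part in the results was not tested. Of 8 squamous markers 5 had a probe set, all above the filter, and their summed log2 value was 47.15 with delta72, 47.48 with WT and 48.47 with control. Single squamous markers differed more than the sum shows. KRT14 was at -0.66 with delta72 and -0.67 with WT, past 1.5-fold, ITGB4 at -0.36 with delta72 and -0.45 with WT, and KRT5 at -0.35 with delta72 and -0.09 with WT, while DSG3 was at 0.22 with delta72 and 0.34 with WT. Their part in the results was not tested. Among the markers of other cells, 1 of 6 fibroblast, 3 of 6 leukocyte and 3 of 5 endothelial genes passed the filter. The fibroblast list summed to log2 26.10 with delta72, 25.98 with WT and 26.33 with control. The leukocyte list summed to 30.18 with delta72, 29.78 with WT and 30.14 with control, and the endothelial list to 25.38 with delta72, 25.65 with WT and 25.64 with control. Within the leukocyte list, PTPRC read at most 3.08, CD79A passed the filter at 6.20 with delta72, 6.23 with WT and 6.10 with control, and CD68 read 8.65 with delta72 and 8.44 with WT, against 8.97 with control. The part of CD68 in the results was likewise not tested.

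With either form of LOXL2, nearly all of the lipid synthesis genes read lower than with the vector on their brightest probe sets. The signs of several small differences depend on that choice of probe set, as given under the processing below. With delta72, 26 of the 28 genes above the filter were lower than control, against 49.8% of all genes, and their median difference was -0.21, against 0 over all genes. With WT, 26 of 28 were lower, against 51.7% of all genes, and the median was -0.22, against -0.01. The genes above control were FADS1 and SCAP with delta72 (background 49.7%) and FADS1 and ACAT2 with WT (background 48%). Both comparisons use the same control array, so they are not independent of each other. The members were also chosen with earlier results of these data known, so the shares over all genes are not an unbiased standard for them. The size was modest. With delta72, 3 genes were at least 1.5-fold lower (background 0.499%), namely SQLE, MSMO1 and FDPS. With WT, 2 were (background 0.867%), SQLE and MSMO1. At 1.5-fold higher there were 0 of 28 genes in either comparison, against 1.28% of all genes with delta72 and 1.85% with WT.

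**Figure D1:**
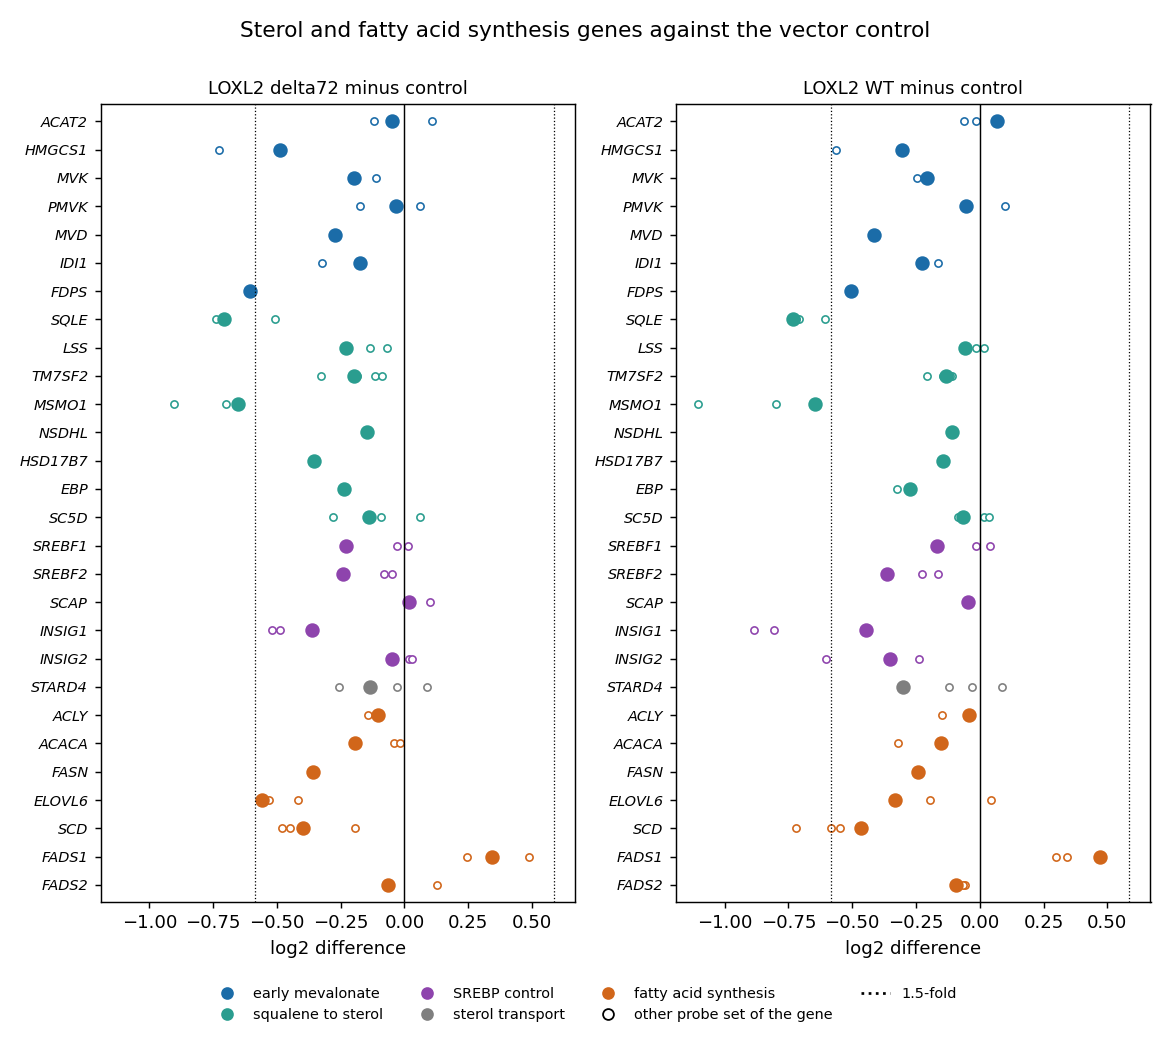
Log2 difference from the vector control of the 28 genes above the filter, with LOXL2 delta72 on the left and LOXL2 WT on the right. Filled points are the brightest probe set, open points the gene's other probe sets above the filter, colours the roles, and dotted lines 1.5-fold. FADS1 is the gene with all of its points right of 0 in both panels.

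Several probe sets of a gene read its RNA on the same array, so they give a check of the reading, though not of the culture. Of the 28 genes, 24 could be read on several probe sets that passed the filter. With delta72 all probe sets were lower in 15 of the 24 (background 28.9%), and with WT in 16 of the 24 (background 30.3%). All were higher in 2 of 24 with delta72, FADS1 and SCAP (background 30%), and in 1 of 24 with WT, FADS1 (background 30.4%). Probe positions are not known here, so probe sets of a gene may overlap. The pair for FDPS gave nearly equal differences, with an SD of at most 0.00134.

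**Figure D2:**
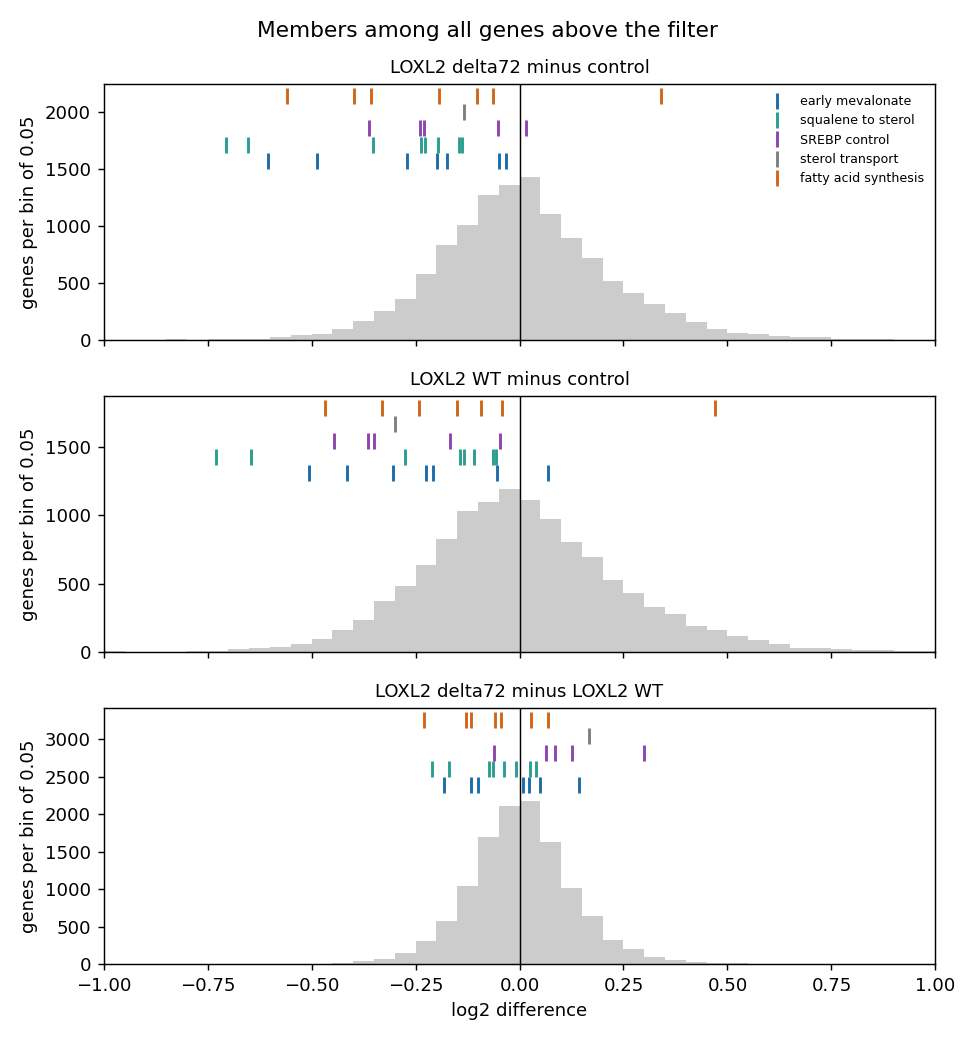
Histograms of the log2 difference of all 12232 genes (grey, bins of 0.05) with the 28 members drawn as ticks by role above them, for delta72 minus control, WT minus control and delta72 minus WT. In the upper panels 26 of 28 ticks lie left of 0, and in the lowest panel 15 of 28 do.

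The early steps lead from acetyl-CoA to farnesyl diphosphate, the last precursor shared by sterols and by protein prenylation. All 7 enzymes of this stretch passed the filter. With delta72 all 7 were lower than control (background 49.8%), with a median of -0.20. With WT 6 of 7 were lower (background 51.7%), with a median of -0.22. FDPS, which makes farnesyl diphosphate, read log2 10.61 with delta72 and 10.70 with WT, against 11.21 with control. It was 1.52-fold lower with delta72 and 1.42-fold lower with WT, and 0.384% of all genes lay below it with delta72 and 1.5% with WT. HMGCS1, the synthase that makes HMG-CoA, read 10.05 with delta72 and 10.24 with WT, against 10.54 with control. Its difference was -0.49 with delta72 and -0.30 with WT on the brightest probe set, and -0.73 with delta72 and -0.56 with WT on the other, so its size depends on the probe set while its sign does not.

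MVD, the decarboxylase that yields isopentenyl diphosphate, read 8.07 with delta72, 7.93 with WT and 8.34 with control on its only probe set. Its difference from control was -0.27 with delta72 and -0.41 with WT. IDI1, the isomerase of the next step, differed from control by -0.17 with delta72 and -0.22 with WT. MVK, mevalonate kinase, differed by -0.20 with delta72 and -0.21 with WT, with both of its probe sets lower in both comparisons. PMVK, the second kinase, was close to control at -0.03 with delta72 and -0.05 with WT, and its 3 probe sets disagreed in sign. ACAT2, the cytosolic thiolase that opens the route, was at -0.05 with delta72 and 0.07 with WT, and its 3 probe sets likewise disagreed. In this stretch FDPS, HMGCS1 and MVD differed most from control, and the thiolase and phosphomevalonate kinase least.

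From squalene to cholesterol, 8 of 11 enzymes passed the filter. All 8 were lower than control with delta72 (background 49.8%), with a median of -0.23. All 8 were also lower with WT (background 51.7%), with a median of -0.14. SQLE, squalene monooxygenase, a rate-limiting step after mevalonate, read log2 9.45 with delta72 and 9.42 with WT, against 10.15 with control. That is 1.63-fold lower with delta72 (-0.71, SD 0.11 over 4 probe sets) and 1.66-fold lower with WT (-0.73, SD 0.06). All 4 probe sets were lower in both comparisons, and 0.213% of all genes lay below it with delta72 and 0.286% with WT. MSMO1, which removes the methyl groups at carbon C-4 of the sterol ring, read 10.92 with delta72 and 10.93 with WT, against 11.58 with control. It was 1.57-fold lower with delta72 (-0.65, SD 0.13 over 3 probe sets) and 1.56-fold lower with WT (-0.64, SD 0.23). Its second brightest probe set was lower still, at -0.90 with delta72 and -1.11 with WT.

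The other enzymes of this stretch differed less. HSD17B7, a ketosteroid reductase that follows MSMO1, was at -0.35 with delta72 and -0.14 with WT on 1 probe set. That probe set has the manufacturer's suffix for probes that may match other sequences, and HSD17B7 has a close pseudogene, so its reading is uncertain. Among the members, the brightest probe sets of ACAT2, EBP, LSS, SCAP, STARD4 and FADS2 carry the same suffix. So do the probe sets of TM7SF2 other than its brightest. Matching to other sequences was not tested. EBP, the sterol isomerase, read 11.00 with delta72, 10.97 with WT and 11.24 with control, at -0.24 with delta72 and -0.27 with WT, with both probe sets lower. LSS, lanosterol synthase, was at -0.23 with delta72 and -0.06 with WT. Its 3 probe sets were all lower with delta72, and 2 of 3 with WT. TM7SF2, a sterol C-14 reductase, was at -0.20 with delta72 and -0.13 with WT, with 5 of 5 probe sets lower in both comparisons. NSDHL, the partner of MSMO1 in demethylation, was at -0.15 with delta72 and -0.11 with WT on 1 probe set, and SC5D, the sterol desaturase, at -0.14 with delta72 and -0.06 with WT, with probe sets of either sign. So SQLE and MSMO1 stood below the other readable enzymes of this stretch, which lay within 1.28-fold of control with delta72 and 1.21-fold with WT.

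**Figure D3:**
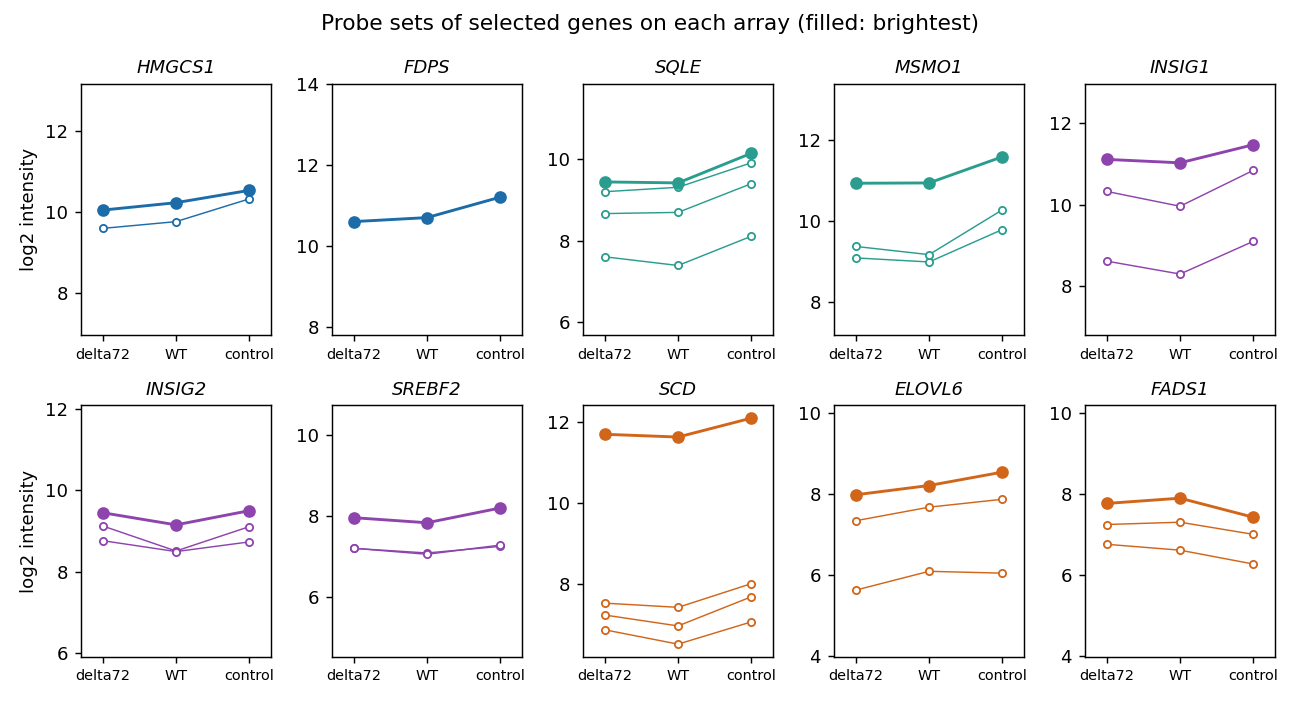
Log2 intensity of each probe set above the filter on the delta72, WT and control arrays for 10 genes, picked after their values were seen. The filled points mark the brightest probe set, and each panel spans the same number of log2 units. Lines climb toward control for SQLE, MSMO1, HMGCS1 and FDPS, and fall toward it for FADS1.

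The control genes of the SREBP system were read next. INSIG1, the sterol-responsive retention protein, read log2 11.11 with delta72 and 11.03 with WT, against 11.47 with control. Its differences were -0.36 with delta72 (SD 0.08 over 3 probe sets) and -0.45 with WT (SD 0.23). The other probe sets were lower still, at -0.52 and -0.49 with delta72 and at -0.89 and -0.81 with WT. INSIG1 was therefore within 1.5-fold of control by its brightest probe set and past 1.5-fold with WT by both others. INSIG2, the related protein whose RNA is less tied to SREBP, read 9.45 with delta72 and 9.15 with WT, against 9.50 with control. With WT it was at -0.35 (SD 0.19) and lower on all 3 probe sets, and with delta72 it was at -0.05, with 2 of 3 probe sets slightly higher.

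SREBF2 read 7.96 with delta72 and 7.84 with WT, against 8.20 with control, and all 3 probe sets were lower in both comparisons. Its differences were -0.24 with delta72 (SD 0.10) and -0.36 with WT (SD 0.10). SREBF1 was at -0.23 with delta72 and -0.17 with WT on its brightest probe set, but the other 2 lay between -0.03 and 0.04 in both comparisons. SCAP, the escort protein, was close to control at 0.02 with delta72 and -0.05 with WT. The median over these 5 genes was -0.23 with delta72 and -0.35 with WT. With delta72 it was 0.01 when each gene was given the median intensity of its probe sets on each array, and -0.03 when each was given the median of its probe sets' differences, so beyond the brightest probe sets that median lay near 0. STARD4, a cytosolic sterol carrier, was at -0.13 with delta72 and -0.30 with WT, and 1 of its 4 probe sets was higher in both comparisons.

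Fatty acid synthesis showed both directions. The 7 genes had a median of -0.19 with delta72 and -0.15 with WT. In each comparison 6 of 7 were lower (background 49.8% with delta72 and 51.7% with WT). SCD, which makes monounsaturated fatty acids, read log2 11.70 with delta72 and 11.63 with WT, against 12.10 with control. It was at -0.40 with delta72 (SD 0.13) and -0.47 with WT (SD 0.10), and all 4 probe sets were lower in both. ELOVL6, which extends saturated and monounsaturated chains, read 7.98 with delta72 and 8.21 with WT, against 8.54 with control. Its difference was -0.56 with delta72, with all 3 probe sets lower, and -0.33 with WT, with 2 of 3 lower. FASN, fatty acid synthase, was at -0.36 with delta72 and -0.24 with WT on 1 probe set.

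ACACA, which makes malonyl-CoA, was at -0.19 with delta72 and -0.15 with WT, and ACLY, which supplies cytosolic acetyl-CoA, at -0.10 with delta72 and -0.04 with WT. All of their probe sets were lower in both comparisons, by small amounts. FADS1, the delta-5 desaturase of polyunsaturated fatty acids, went the other way. It read 7.77 with delta72 and 7.89 with WT, against 7.42 with control, which is 1.27-fold higher with delta72 and 1.39-fold higher with WT. All 3 probe sets were higher, at 0.24 to 0.49 with delta72 and at 0.30 to 0.47 with WT. FADS2, the delta-6 desaturase, its neighbour on the same chromosome, stayed close to control at -0.06 with delta72 and -0.09 with WT. Thus SCD and ELOVL6 read lowest against control within this group, and FADS1 read above it.

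The forms were then compared with each other, without the control array. Of the 28 genes, 15 were lower and 13 higher with delta72 than with WT (background 49.3% lower), with a median of -0.02, against 0.001 over all genes. At 1.5-fold, 0 were lower (background 0.0409%) and 0 higher (background 0.18%). SQLE differed by 0.02 and MSMO1 by -0.01 on their brightest probe sets. Their other probe sets above the filter did not read alike, from -0.11 to 0.21 for SQLE and at 0.10 and 0.20 for MSMO1. With no replicate, neither a difference nor its absence can be tested.

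**Figure D4:**
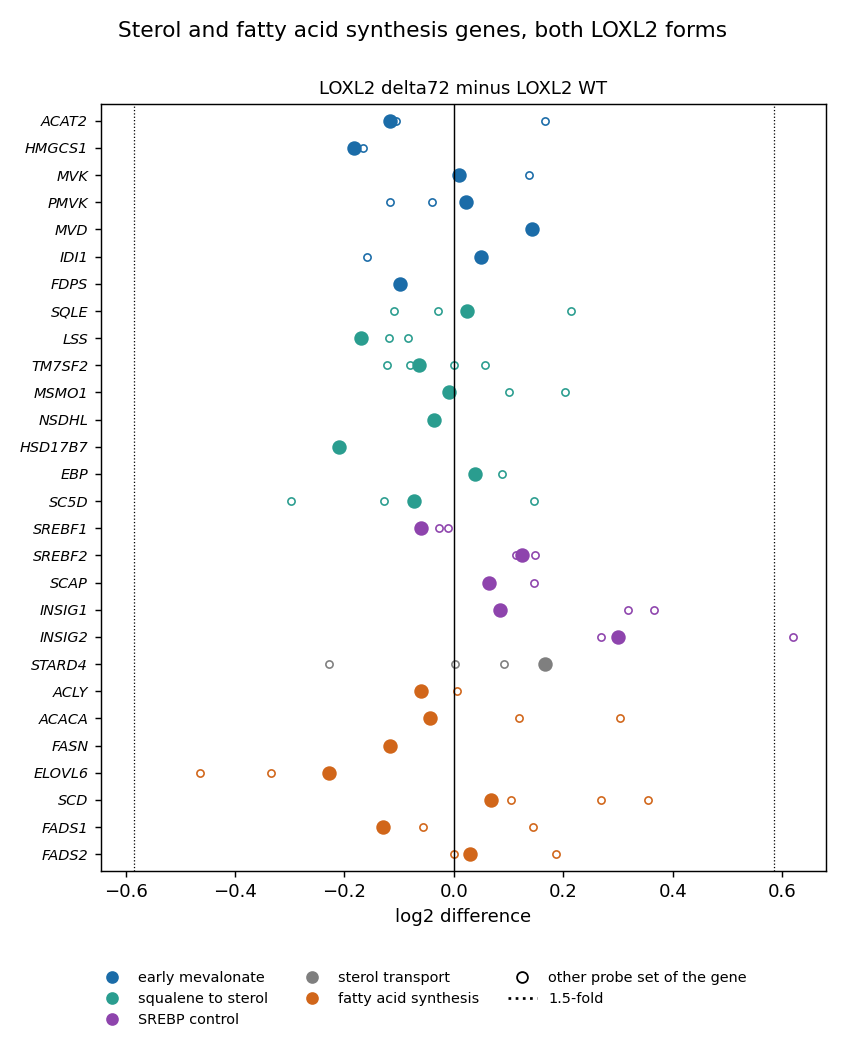
Log2 difference of delta72 minus WT for the 28 genes above the filter, with filled points for the brightest probe set and open points for the others. Points lie on both sides of 0, INSIG2 farthest to the right, and 1 open point of INSIG2 passes 1.5-fold.

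Among the genes that control SREBP, 4 of 5 were higher with delta72 (background 50.4%). INSIG2 exceeded its WT reading by 0.30 (1.23-fold, SD 0.19 over 3 probe sets), and 98.0% of all genes lay below it. Its probe sets gave 0.27, 0.30 and 0.62. INSIG1 was 0.08 higher on its brightest probe set and 0.37 and 0.32 higher on the others, SREBF2 0.13 higher and SCAP 0.06 higher. Of the 5 genes, 4 were higher with delta72 on every probe set (background 23.2%), while SREBF1 was at -0.06 with all 3 lower (background 25.5%). Over all members read on several probe sets, every probe set was higher in 7 of 24 and lower in 5 of 24, near these background shares. MVK, EBP and SCD were also higher on every probe set, and FDPS was lower on both. Among the enzymes, ELOVL6 was at -0.23, -0.33 and -0.46 over its probe sets, HMGCS1 at -0.18 and on its other probe set -0.17, and LSS at -0.17, -0.12 and -0.08. SCD was higher with delta72 on all 4 probe sets, from 0.07 to 0.35.

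Other genes of lipid metabolism were placed beside the members with 6 further lists. Over all genes, 49.8% were lower than control with delta72 and 51.7% with WT. Of the members' close relatives in sterol synthesis, 7 of 10 listed genes passed the filter, and the list had medians of 0.003 with delta72 and 0.01 with WT. In it 3 of 7 were lower in each comparison. ERG28, a scaffold of the C-4 demethylation enzymes, was at -0.41 with delta72 and -0.33 with WT, and TMEM97, a sterol-responsive membrane protein, at -0.25 with delta72 and -0.06 with WT. Of the 5 probe sets of TMEM97, 4 were lower in each comparison. PDSS1, which makes the side chain of coenzyme Q, was at 0.29 with delta72 and 0.47 with WT, but 1 of its 2 probe sets was lower. DHDDS, which makes dolichol precursors, was at 0.23 with delta72 and 0.21 with WT, and its 2 probe sets likewise disagreed.

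The list of sterol sensing and SREBP processing, with 9 of 11 genes, had medians of -0.004 with delta72 and -0.03 with WT, with 5 of 9 lower with delta72 and 6 of 9 with WT. SP1, the partner factor of SREBPs named above, read 8.16 with delta72 and 8.10 with WT, against 8.61 with control, at -0.45 with delta72 and -0.51 with WT, on 2 probe sets with an SD of 0.01 in both. MBTPS1, the Golgi protease that makes the first cut in SREBPs, was at -0.32 with delta72 and -0.27 with WT on 1 probe set. MBTPS2, which makes the second, was at 0.09 with delta72 and 0.18 with WT, with probe sets of either sign. RNF139, an endoplasmic reticulum ubiquitin ligase, was at 0.15 with delta72 and 0.05 with WT.

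Among further genes of fatty acid and glycerolipid synthesis, 16 of 18 passed the filter, with medians of 0.04 with delta72 and -0.09 with WT, with 7 of 16 lower with delta72 and 10 of 16 with WT. ACSS2, which makes acetyl-CoA from acetate and is a known SREBP target, read 8.56 with delta72 and 8.62 with WT, against 9.13 with control. It was at -0.57 with delta72 and -0.52 with WT, lower on both probe sets. SLC25A1, the mitochondrial citrate carrier, was at -0.29 with delta72 and -0.34 with WT, lower on all 3. GPAM, the first acyltransferase of glycerolipid synthesis, was at 0.33 with delta72 and 0.44 with WT, higher on both, and FABP5, a fatty acid carrier, at 0.37 with delta72 and 0.19 with WT. None of the 6 lists held a gene at least 1.5-fold different from control on its brightest probe set. Over all genes, 0.499% were that much lower and 1.28% higher with delta72, and 0.867% lower and 1.85% higher with WT. For lists this short, 0 is near those shares.

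**Figure D5:**
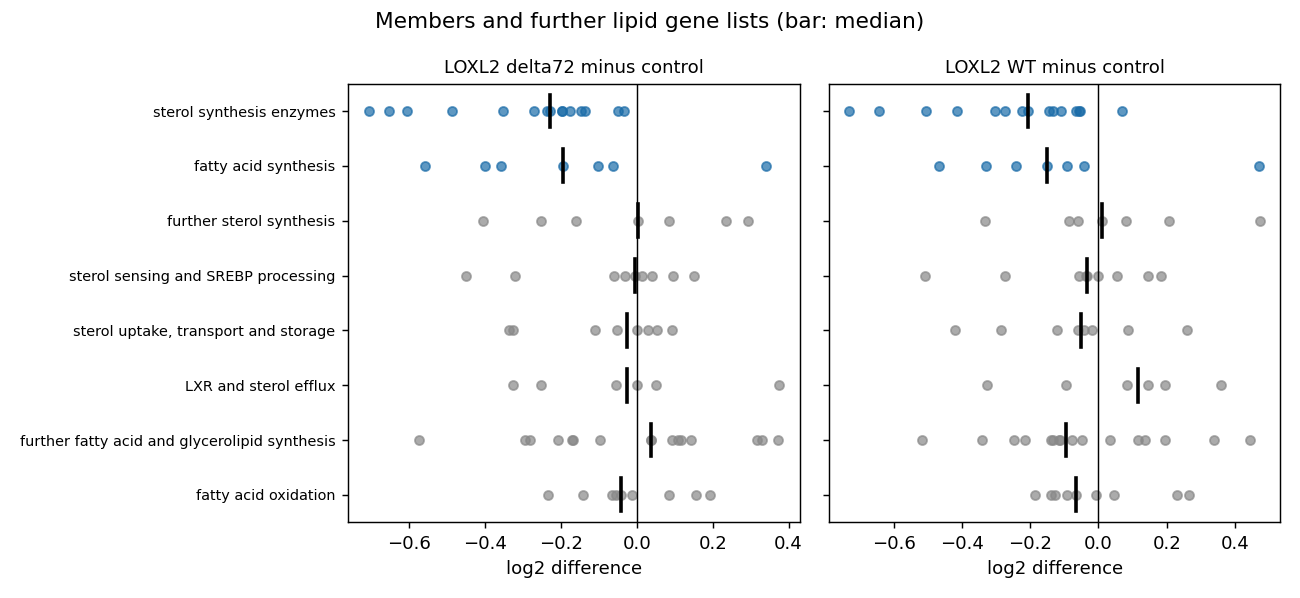
Log2 difference from control of single genes (points) and the median (bar) of the sterol enzymes, the fatty acid genes and the 6 further lists, with delta72 on the left and WT on the right. The members' medians lie between -0.23 and -0.15, and those of the further lists between -0.09 and 0.12.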

How the data were processed

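The authors deposited 1 table of log2 intensity for 49395 probe sets on 3 arrays. Partek and Affymetrix Expression Console were used, per the submitters' processing notes. Background correction and normalization are not given in the labels or notes. The unit was read from the values, which run from 2.07 to 14.56. Of 49293 probe sets that were not controls, 44988 had 1 gene symbol in the platform annotation, 1832 had several and 2473 were not listed. All 79 probe sets of the members had an Entrez ID with the same RefSeq symbol. From there, differences of log2 values, medians and counts were computed with Python 3.11.15, numpy 2.4.6 and pandas 2.3.3, with statsmodels 0.14.6 for the lowess alternative (span 0.3). Genes past 1.5-fold were counted by size alone, since 1 array per condition allows no test. The SD over a gene's probe sets above the filter is probe error and holds no biological error. The small number of arrays limits the precision.

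The members, roles and lists were chosen with earlier results of these data known. The genes named were all members, LOXL2 and, from each further list, up to 4 genes with the largest difference from control. Single cell type markers were named after their values were seen. The counting code was run on simulated data with planted changes well past 1.5-fold and noise below the probe error here. That run checks the code only and not the precision of these counts. The 8 alternatives were 3 scalings, 3 ways to represent a gene's probe sets, 1 of them added after the data were seen, and 2 filters.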

Additional observations from a re-analysis of the deposited data

How the results depend on the processing

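Common-median, quantile and lowess scaling and both other filters kept the medians against control of the sterol enzymes, the SREBP control genes, the fatty acid genes and all members negative. The further lists were not rerun. Under the common median, the median of all members was -0.26 with WT. The choice of probe set mattered more. With the median intensity over probe sets and with the second brightest probe set, the SREBP control genes were at -0.20 and -0.23 with WT, and at 0.013 with delta72 under both. The fatty acid genes were then at -0.12 and -0.10 with delta72, and all members at -0.17 and -0.13 with delta72. The members at least 1.5-fold lower with WT numbered 5 and 4, and the shares over all genes under these rules are not given here. With the median of the probe set differences, chosen after seeing the data, the SREBP control genes were at -0.028 with delta72 and -0.23 with WT, the fatty acid genes at -0.12 with delta72 and all members at -0.15 with delta72. Between the forms, 1 gene was 1.5-fold higher with the median intensity and with the second brightest probe set. The second brightest probe set also gave -0.082 for the sterol enzymes, 0.15 for the SREBP control genes and 0.00304 for the fatty acid genes and for all members, which was 0.000515 with the 60th percentile filter. Between the forms, the medians of the fatty acid genes and of all members thus changed sign, while that of the SREBP control genes was positive and that of the sterol enzymes negative under all alternatives. The second brightest probe set exists for 24 of the 28 members, and the cause of the other shifts was not tested. Alternative values of single members were compared with the pooled probe error, log2 0.15 for delta72, 0.17 for WT and 0.11 between the forms. With delta72 199 of 218 stayed within it, with WT 202 of 218 and between the forms 198 of 218. Many could not leave it, because the other filters do not change a gene's brightest probe set. The common median also moves every gene by the same amount, which was smaller than the error. Against control, all 19 values beyond the error with delta72 and all 16 with WT came from the other ways to represent a gene's probe sets. Of the genes past 1.5-fold, 0 changed sign, but several smaller differences did. With the median intensity over probe sets, ACAT2, PMVK, SREBF1, INSIG2 and FADS2 moved from lower to higher with delta72. PMVK, LSS, SC5D and SREBF1 did so with WT, while ACAT2 moved from higher to lower. The counts of lower members given above thus hold for the brightest probe sets. The median over all genes lay farthest from 0 at -0.05, with WT under the common median. No paired analysis was possible because each condition has 1 array. Readings of dim genes cannot be separated from background here.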

Other observations

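Genes that burn or export lipid read on both sides of control. Of 11 fatty acid oxidation genes 9 passed the filter, with medians of -0.04 with delta72 and -0.07 with WT. In each comparison 6 of 9 were lower, against 49.8% of all genes with delta72 and 51.7% with WT. CPT1A, which controls the entry of fatty acids into mitochondria, was at 0.19 with delta72 and 0.26 with WT. Its other probe set above the filter was at 0.11 with delta72 and -0.13 with WT, so the sign with WT depends on the probe set. ACADM, the medium-chain dehydrogenase, was at 0.16 with delta72 and 0.23 with WT, higher on all 7 probe sets, while HADHB, of the trifunctional protein, was at -0.14 with delta72 and -0.19 with WT, lower on all 5. ETFDH, which passes electrons from this pathway to the respiratory chain, was at -0.24 with delta72 and 0.05 with WT, and on its other probe set at -0.53 with delta72 and -0.29 with WT.

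Of 8 genes of the LXR receptors and sterol efflux 6 passed the filter, with medians of -0.03 with delta72 and 0.12 with WT. MYLIP, a ligase that degrades lipoprotein receptors and an LXR target, was at 0.38 with delta72 and 0.36 with WT, higher on all 3 probe sets. ABCG1, a sterol exporter and also an LXR target, was at -0.25 with delta72 and -0.33 with WT on 1 probe set. SMPDL3A was at -0.33 with delta72 and -0.09 with WT, and NR1H3, the LXR alpha gene, at 0 with delta72 and 0.20 with WT. In the list of sterol uptake, transport and storage, 8 of 10 genes passed, with medians of -0.03 with delta72 and -0.05 with WT. NPC2, which carries sterol out of the lysosome, was at -0.34 with delta72 and -0.42 with WT, lower on all 3 probe sets, and LIPA, the lysosomal lipase, at -0.32 with delta72 and -0.28 with WT, lower on both. SOAT1, which esterifies sterol for storage, was at 0.09 with delta72 and 0.26 with WT, higher on all 3, and GRAMD1A, a sterol transfer protein, at -0.11 with delta72 and -0.12 with WT.

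In the members that were lower on their brightest probe set and had others, that probe set read less of a difference than the rest in 9 of 22 genes with delta72 and in 10 of 22 with WT. INSIG1, MSMO1 and HMGCS1, in which the brightest probe set gave the smallest difference, are thus not a general pattern among the members.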
